A study of Mus musculus with 18 samples.

Results

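The genes described here are 10 markers of the mural cells of blood vessels, which are the pericytes that sit on capillaries and the smooth muscle cells that wrap larger vessels. They were followed in mouse RNA sequencing libraries that carried either the T166A form of PPARg, a lipid-sensing nuclear receptor, or its wild-type (WT) form. The members were given by name, with earlier results of these data known, and all 10 were found among the 26149 genes of the skin count table and in the table of bone marrow-derived macrophages (BMDM). They fall into 3 pericyte genes (Rgs5, Kcnj8 and Abcc9), 3 genes shared by pericytes and smooth muscle (Pdgfrb, Cspg4 and Notch3) and 4 contractile genes (Acta2, Tagln, Myh11 and Cnn1).

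The skin groups were PPARg T166A mice and WT mice, with 6 libraries each, taken 6 days after injury of the dorsal skin. The skin had been digested with collagenase IV, hyaluronidase and DNase I, and the cells held back by anti-F4/80 microbeads were collected, F4/80 being a surface protein of macrophages. The control source was BMDM, grown from the marrow of PPARg T166A mice or of C57BL/6J mice for 7 days with 50 ng/ml of the growth factor M-CSF, with 3 libraries for each genotype. Replicates 1 and 2 of each BMDM group carry the batch label B1 and replicate 3 the label B2, whereas the skin labels give no batch. The labels name no strain for the WT mice of the skin groups and no age. They also leave unsaid whether replicates came from separate mice or cultures, so p-values cover the spread among libraries, which may be technical. Counts of Pparg cannot check a point mutation, and the genotypes stand as labelled.

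Pericytes are recruited to growing capillaries by PDGF-B from endothelial cells, which acts on the receptor PDGFRB, and are kept there by Notch and angiopoietin signals. Smooth muscle cells of arterioles and veins carry a contractile apparatus of smooth muscle actin, myosin and their regulators, whose genes are switched on by serum response factor and its partner myocardin through CArG box elements. Wounded skin forms new vessels, and smooth muscle actin is there also made by myofibroblasts.

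Depth was 33421158 to 37679525 gene counts in skin T166A libraries, 29357354 to 38774475 in skin WT libraries and 40072513 to 44152639 over the BMDM libraries. Levels are in CPM, meaning a gene's counts per 1000000 gene counts of the library after TMM scaling, as mean ± SD with n = 6 per genotype in skin and n = 3 in BMDM. The skin libraries held RNA of several cell types. The macrophage gene Lyz2 stood at 4280 ± 163 CPM in T166A and 5420 ± 480 CPM in WT libraries. The summed level of 10 macrophage markers was 9750 to 11000 CPM in T166A and 11300 to 14300 CPM in WT libraries, and that of 12 fibroblast markers was 6600 to 12000 CPM in T166A and 7780 to 11900 CPM in WT libraries. In such bulk fractions, fewer cells of a type and less RNA per cell cannot be told apart.

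In skin, 8 of the 10 genes passed edgeR's quasi-likelihood F test (adjusted by Benjamini-Hochberg over 15473 tested genes) with a higher level in T166A, and none passed with a lower level. Among all tested genes, 12.7% were higher and 13.2% were lower (1963 and 2048 genes). With library totals in place of TMM scaling, 3357 genes were higher and 1308 lower, so that 72.0% of the calls were higher in place of 48.9%, and all 10 members were called higher, beside 21.7% of all genes. The median log2 fold change, T166A over WT, was 0.61 over the 10 genes and 0.01 over all genes tested. For 5 of the 10 genes every T166A library lay above every WT library, which held for 5.43% of all tested genes. The 4 contractile genes were all called, with a median log2 fold change of 1.09, and so were the 3 pericyte genes, with a median of 0.56. Of the 3 shared genes, 1 was called, and their median was 0.25.

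**Figure D1:**
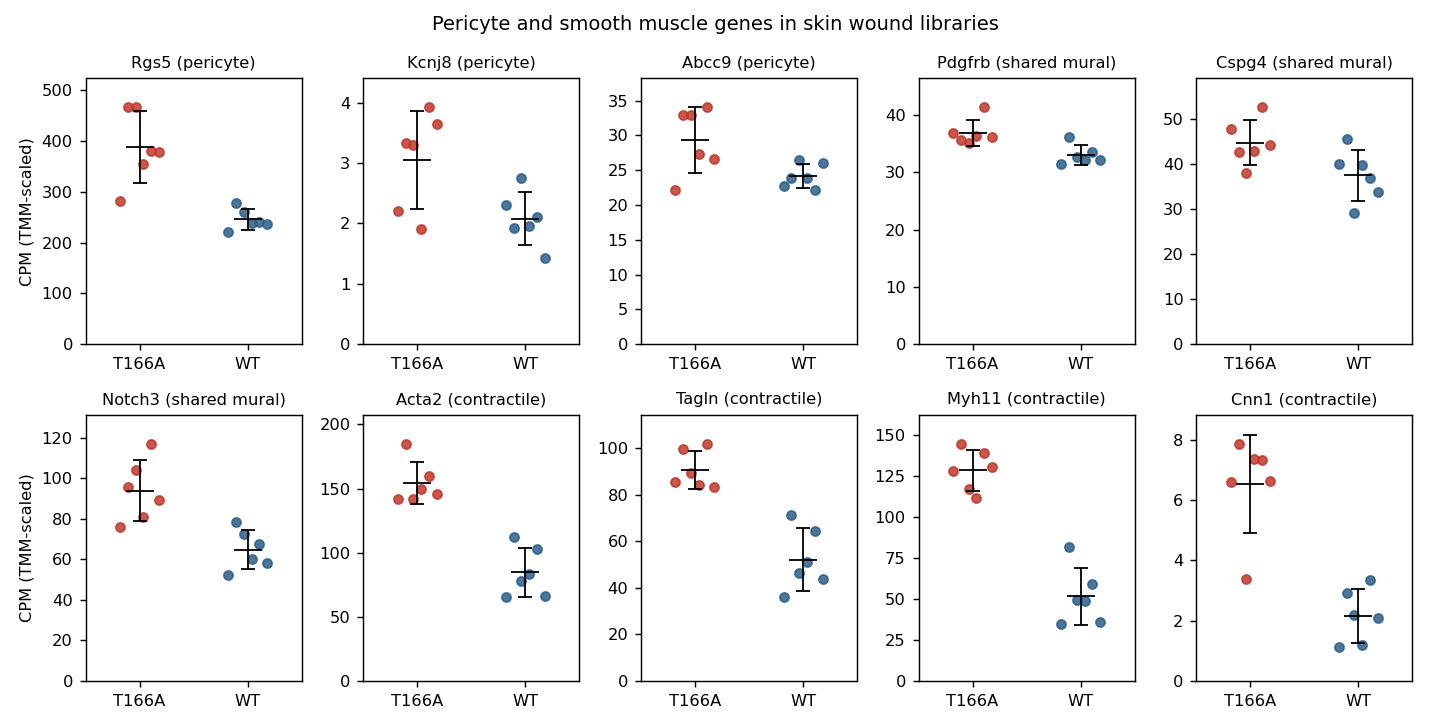
Levels of the 10 genes in skin wound libraries, as TMM-scaled CPM on linear axes that start at 0. Each point is a library, T166A in red and WT in blue, and the bars give mean ± SD (n = 6 each). For Rgs5, Acta2, Tagln, Myh11 and Cnn1 no T166A library reached down to the highest WT library.

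Rgs5, on chromosome 1 from 169655501 to 169695813 (GRCm38.p6, the mm10 build, as are all positions), encodes a regulator of G protein signalling that is among the most widely used pericyte markers. It had 282, 379 and 467 CPM in the lowest, median and highest T166A library, against 220, 240 and 278 CPM in WT libraries. The lowest T166A library, replicate 1, stood just above the highest WT library, and the groups did not overlap. The mean was 388 ± 70.9 CPM in T166A and 246 ± 20.3 CPM in WT libraries, which is a 1.58-fold difference (log2 fold change 0.66, SE 0.11, edgeR adjusted p = 0.000706). Its second listed transcript, NM_001313705, stood at 30.2 ± 4.18 CPM in T166A and 19.3 ± 2.69 CPM in WT libraries, a ratio of 1.57, close to that of the main transcript NM_009063.

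The 250 bases before the RefSeq start of Rgs5 are shown because this gene has the highest level of the set per length. The capitals mark TATATA, which was found in 5.67% of 32851 RefSeq promoter windows of 300 bases. The stretch is chr1:169655251-169655500, plus strand, RefSeq on GRCm38.p6, and it lies outside annotated exons.
Rgs5: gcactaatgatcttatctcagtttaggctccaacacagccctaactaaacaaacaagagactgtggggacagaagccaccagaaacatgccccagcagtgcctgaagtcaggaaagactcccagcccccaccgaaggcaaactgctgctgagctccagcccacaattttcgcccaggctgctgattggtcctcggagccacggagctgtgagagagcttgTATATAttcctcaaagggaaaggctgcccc

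Kcnj8 and Abcc9 lie next to each other on chromosome 6, at 142564837 to 142571614 and at 142587862 to 142702766, and encode the pore Kir6.1 and the regulatory subunit SUR2 of an ATP-sensitive potassium channel of pericytes and vascular smooth muscle. Kcnj8 was scarce, at 1.91, 3.32 and 3.93 CPM in the lowest, median and highest T166A library and 1.43, 2.03 and 2.76 CPM in WT libraries. In 4 of 6 T166A libraries it lay above all WT libraries, and the groups overlapped. It rose 1.47-fold (log2 fold change 0.56, SE 0.20, edgeR adjusted p = 0.0419), and this call was lost in 9 of 21 alternatives, with adjusted p-values from 0.0155 to 0.105.

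Abcc9 had 22.2, 30.1 and 34.1 CPM in the lowest, median and highest T166A library and 22.2, 23.9 and 26.4 CPM in WT libraries. Replicate 1 of T166A was as low as the lowest WT library, while the other 5 lay above all WT libraries. Abcc9 rose 1.21-fold (log2 fold change 0.28, SE 0.09, edgeR adjusted p = 0.0263), and this call was lost in 7 of 21 alternatives, with adjusted p-values from 0.00205 to 0.0693. Leaving out T166A replicate 2, 3 or 5 or WT replicate 4 or 5 ended the calls of both genes (edgeR adjusted p from 0.0515 to 0.105), and so did, for Kcnj8, T166A replicate 6 or WT replicate 2 or 6 and, for Abcc9, WT replicate 1. The counts per 100 counts of Abcc9 gave 10.4 ± 2.2 for Kcnj8 in T166A and 8.61 ± 1.83 in WT libraries, and the groups overlapped. The 2 tested channel relatives, Kcnj2 (another inward rectifier, 7.93 ± 1.75 CPM in T166A and 6.39 ± 1.34 CPM in WT) and Abcc8 (the subunit SUR1), did not pass (edgeR adjusted p = 0.148 and 0.513).

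Among the genes shared by pericytes and smooth muscle, Notch3 (chromosome 17, 32120820 to 32166896) encodes the Notch receptor of mural cells. It had 76.1, 92.5 and 117 CPM in the lowest, median and highest T166A library and 52.4, 63.6 and 78.5 CPM in WT libraries. The groups overlapped only between T166A replicate 1 and WT replicate 2. Notch3 rose 1.45-fold (log2 fold change 0.54, SE 0.12, edgeR adjusted p = 0.00462).

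Pdgfrb (chromosome 18, 61045127 to 61085067), the receptor for PDGF-B, is also made by fibroblasts. It had 35.1, 36.2 and 41.4 CPM in the lowest, median and highest T166A library and 31.4, 32.3 and 36.2 CPM in WT libraries. Cspg4 (chromosome 9, 56865104 to 56899870), which encodes the proteoglycan NG2, had 38.0, 43.5 and 52.6 CPM in T166A and 29.1, 38.3 and 45.5 CPM in WT libraries. The groups overlapped for both genes, and neither passed the threshold. The log2 fold change was 0.16 for Pdgfrb (95% interval 0.04 to 0.29, edgeR adjusted p = 0.0508) and 0.25 for Cspg4 (0.06 to 0.45, edgeR adjusted p = 0.0528). Both lay next to the threshold: Pdgfrb was called in 8 and Cspg4 in 6 of 21 alternatives.

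**Figure D2:**
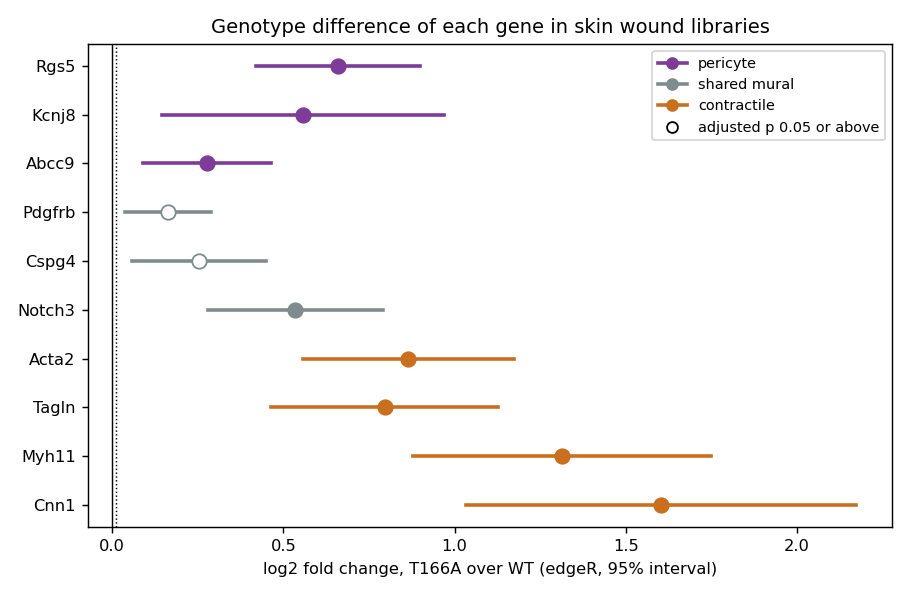
Log2 fold change in skin, T166A over WT, with its 95% interval from edgeR for each gene, coloured by role. The dotted line is the median over all tested genes (0.01), open circles mark Pdgfrb and Cspg4, which did not pass, and the contractile genes lie between 0.80 and 1.60.

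The contractile genes had log2 fold changes of 0.80 to 1.60, beside 0.28 to 0.66 for the pericyte genes, and this difference between the roles was not tested. Acta2 (chromosome 19, 34240336 to 34255585) encodes smooth muscle alpha-actin. It had 142, 148 and 185 CPM in the lowest, median and highest T166A library, against 65.1, 80.6 and 112 CPM in WT libraries, without overlap. The mean was 154 ± 16.3 CPM in T166A and 84.6 ± 19.4 CPM in WT libraries, a 1.82-fold difference (log2 fold change 0.86, SE 0.14, edgeR adjusted p = 0.000797). Tagln (chromosome 9, 45929628 to 45936058) encodes transgelin, an actin-binding protein of smooth muscle. Its T166A libraries spanned 83.4 to 102 CPM with a median of 87.2, and its WT libraries 36.0 to 71.3 CPM with a median of 48.8, again without overlap. Tagln rose 1.74-fold (log2 fold change 0.80, SE 0.15, edgeR adjusted p = 0.00231). The span of Tagln overlaps that of Pcsk7 by 2480 bases, and Pcsk7 did not pass (log2 fold change 0.04, edgeR adjusted p = 0.691). The span of Abcc9 overlaps that of 5330439B14Rik by 11868 bases, a gene with 543 counts summed over the skin libraries. The span of Notch3 overlaps those of Gm38585 and Gm41568 by 10673 and 3142 bases, and neither is listed in the skin counts.

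Myh11 (chromosome 16, 14194527 to 14292188) encodes the smooth muscle myosin heavy chain, a marker of differentiated smooth muscle. It had 112, 129 and 145 CPM in the lowest, median and highest T166A library, against 34.9, 49.2 and 81.9 CPM in WT libraries. Even the highest WT library, replicate 2, lay below every T166A library. Myh11 rose 2.49-fold (log2 fold change 1.31, SE 0.20, edgeR adjusted p = 0.000604). Cnn1 (chromosome 9, 22099221 to 22109221) encodes calponin 1, which binds actin and restrains smooth muscle myosin, and was the scarcest contractile gene. It had 3.39, 6.98 and 7.88 CPM in the lowest, median and highest T166A library, against 1.11, 2.15 and 3.36 CPM in WT libraries. T166A replicate 3 stood apart at the low end and lay just above the highest WT library. Cnn1 showed the largest difference of the 10 genes, 3.04-fold (95% interval 2.04 to 4.51, log2 fold change 1.60, SE 0.27, edgeR adjusted p = 0.000407).

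Acta2 was the one gene of the set with CArG-like elements in its RefSeq promoter window. Windows were given for 7 of the 10 genes (none for Pdgfrb, Tagln and Myh11). No member's window held a perfect CArG box, which 1.63% of all windows hold, and a CArG box with 1 free base in its A/T core was found in 9.98% of windows, searched on both strands. The Acta2 window held 2 such elements and a TATATA run, given here in capitals on the minus strand, each with its neighbouring bases. They lie at chr19:34255438-34255467, chr19:34255388-34255417 and chr19:34255348-34255377, within a noncoding first exon in GENCODE M21.
Acta2 element 1: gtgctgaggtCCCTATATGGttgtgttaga
Acta2 element 2: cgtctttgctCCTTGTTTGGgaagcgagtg
Acta2 TATA stretch: agagcaaggggcTATATAacccttcagcgt
A match of letters is a description and shows no binding in these cells.

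Counts per kilobase of transcript allow levels of different genes to be set side by side; Kcnj8 had no transcript length in the annotation. In T166A libraries the order of levels ran from Rgs5 (94.8 ± 17.3 CPM per kb) over Acta2 (75.7 ± 8.03), Tagln (56.8 ± 5.09), Myh11 (20.7 ± 2.01), Notch3 (11.7 ± 1.89), Pdgfrb (6.82 ± 0.424), Cspg4 (5.5 ± 0.613) and Abcc9 (3.91 ± 0.63) to Cnn1 (2.75 ± 0.678). The order was the same in WT libraries, where Rgs5 stood at 60.0 ± 4.96, Acta2 at 41.6 ± 9.54, Myh11 at 8.33 ± 2.79 and Cnn1 at 0.901 ± 0.379 CPM per kb. Neighbours in this order whose libraries overlapped were Rgs5 and Acta2, and Abcc9 and Cnn1, in T166A, and in WT Rgs5 and Acta2, Acta2 and Tagln, Myh11 and Notch3, and Notch3 and Pdgfrb.

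The pericyte and contractile groups were then contrasted in each library. The mean log2 CPM of Rgs5, Kcnj8 and Abcc9 was 5.01 ± 0.276 in T166A and 4.53 ± 0.119 in WT libraries, a difference of 0.48. The mean log2 CPM of Acta2, Tagln, Myh11 and Cnn1 was 5.86 ± 0.176 in T166A and 4.68 ± 0.413 in WT libraries, a difference of 1.18. Every T166A library lay above every WT library in the contractile mean, while the pericyte means overlapped. The pericyte mean minus the contractile mean was -0.85 ± 0.305 in T166A and -0.14 ± 0.406 in WT libraries, so the contrast was 0.71 lower in T166A (-0.71 on the log2 scale). It ran from -1.23 to -0.35 in T166A and from -0.67 to 0.38 in WT libraries, and the groups overlapped. T166A replicate 3 was the highest of its group, and WT replicates 2 and 5 were the lowest of theirs. This is a description of the 7 genes and carries no test, and the size of the contrast depends on transcript lengths, whereas its difference between genotypes does not.

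**Figure D3:**
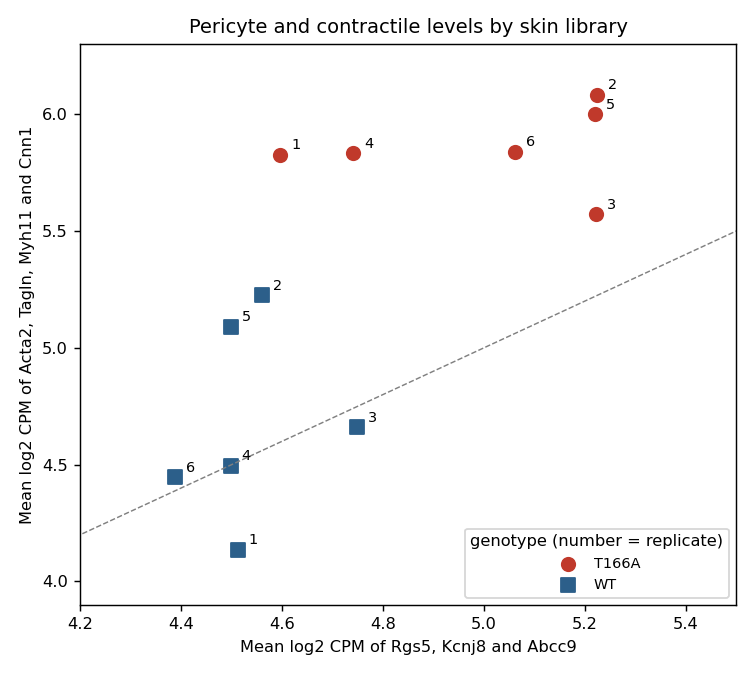
Mean log2 CPM of the 4 contractile genes against that of the 3 pericyte genes in each skin library, T166A as red circles and WT as blue squares, numbered by replicate. The dashed line marks equal means. All T166A libraries lie above all WT libraries on the vertical axis, between 5.57 and 6.08 against 4.14 to 5.23, while the pericyte means overlap.

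Ratios of counts within a library do not depend on scaling. There were 83.7 ± 6.18 counts of Myh11 per 100 counts of Acta2 in T166A libraries and 60.2 ± 7.07 in WT libraries, and the groups did not overlap (74.8 to 89.7 in T166A, 53.7 to 72.8 in WT). Tagln per 100 counts of Acta2 was 59.0 ± 3.94 in T166A and 61.5 ± 3.75 in WT, with overlap. Cnn1 per 100 counts of Acta2 was 4.22 ± 0.922 in T166A and 2.5 ± 0.765 in WT, also with overlap. Against the pericyte gene Rgs5, Myh11 gave 34.1 ± 6.78 counts per 100 in T166A and 20.8 ± 5.42 in WT. Acta2 gave 40.6 ± 6.54 per 100 of Rgs5 in T166A and 34.2 ± 6.2 in WT. Notch3 gave 24.5 ± 3.73 in T166A and 26.3 ± 1.95 in WT, and the groups overlapped for each of these genes. Of these ratios, Myh11 to Acta2 was the one that separated the genotypes.

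Other genes of the mural programme came from lists chosen with earlier results of these data known. Of 18 other pericyte and mural genes tested, 7 were higher and 2 were lower (9 and 0 with library totals), with a median log2 fold change of 0.34. Gja4, the gap junction protein connexin 37 of arterial endothelium and mural cells, had 39.0 ± 6.86 CPM in T166A and 21.5 ± 3.8 CPM in WT libraries (log2 fold change 0.86, edgeR adjusted p = 0.000227). Heyl, a Notch target of smooth muscle, rose by 0.71 (edgeR adjusted p = 0.000482), Mcam, the adhesion molecule CD146 of endothelium and pericytes, by 0.53 (0.000548), Foxs1, a forkhead factor of mural cells, by 0.73 (0.0045), and Vtn, vitronectin, by 0.49 (0.00435), all on the log2 scale. The most abundant gene of the list, Anpep, a peptidase that macrophages and fibroblasts also make, fell by 0.17 (edgeR adjusted p = 0.0401). The other gene that fell, Zic1, which was named after its value was seen, fell by 0.76 (edgeR adjusted p = 0.0302). No call was made for Higd1b, Cox4i2, Ndufa4l2, Steap4, Tbx18, Ebf1, Angpt1, Colec11 and Ggt1. Listing these genes was decided after the tests. Their log2 fold changes ran from -0.12 (Cox4i2) to 0.37 (Colec11), with edgeR adjusted p from 0.116 (Ndufa4l2) to 0.938 (Ggt1). With library totals, Ndufa4l2 and Steap4 were called higher (edgeR adjusted p = 0.0423 and 0.0285).

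Of 24 other contractile smooth muscle genes, 14 were higher and 1 was lower, with a median log2 fold change of 0.45. Synpo2, an actin-bundling protein, had 28.8 ± 3.57 CPM in T166A and 16.8 ± 2.41 CPM in WT libraries (log2 fold change 0.78, edgeR adjusted p = 2.2e-06). Myl9, the regulatory light chain of smooth muscle myosin, had 57.5 ± 6.0 CPM in T166A and 30.8 ± 6.29 CPM in WT libraries (0.90, edgeR adjusted p = 5.23e-05). Mylk, the kinase that phosphorylates this light chain, had 64.3 ± 7.8 CPM in T166A and 32.7 ± 7.37 CPM in WT libraries (0.98, edgeR adjusted p = 0.00016). Cald1, caldesmon, rose by 0.42 (edgeR adjusted p = 0.000105) and Pcp4l1 by 0.53 (edgeR adjusted p = 9.29e-05). Of these, Myl9, Mylk and Cald1 encode the myosin light chain, its kinase and a thin filament regulator. The most abundant gene of the list, Flna, an actin cross-linker of many cell types, did not pass (0.08, edgeR adjusted p = 0.346). Cnn2, a calponin of many cell types including macrophages, was the gene that fell (-0.30, edgeR adjusted p = 0.00124), and was named after its value was seen.

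Relatives of the members by sequence gave mixed results. Of 10 tested relatives of the actin, calponin, transgelin and myosin genes, 1 was higher and 2 were lower. Higher and lower genes were 1 and 3 with RLE factors, 1 and 4 with upper-quartile factors and 2 and 2 with library totals. The cytoplasmic actin Actb had 1730 ± 60.8 CPM in T166A and 1880 ± 74.7 CPM in WT libraries and did not pass (log2 fold change -0.12, edgeR adjusted p = 0.0661). With upper-quartile factors Actb was called lower (edgeR adjusted p = 0.0434). Actg1, the other cytoplasmic actin, fell by 0.22 (edgeR adjusted p = 0.00209), and Cnn3, a calponin of many tissues, rose by 0.49 (edgeR adjusted p = 0.000123). Acta1, the skeletal muscle actin, was at 15.9 ± 2.78 CPM in T166A and 39.9 ± 4.95 CPM in WT libraries (-1.33, edgeR adjusted p = 7.37e-08). Actin genes are alike in their coding sequence, and no source used here states how reads that map to several places were handled, so the split of reads between Acta2 and Acta1 is uncertain. Of 7 tested relatives of Rgs5, 1 was higher and 4 were lower. Rgs16, the most abundant, rose by 0.52 (edgeR adjusted p = 0.00653). Rgs2 fell by 0.47, Rgs10 by 0.40 and Rgs1 by 0.70 on the log2 scale (edgeR adjusted p = 0.000119, 0.00012 and 0.00242), and these 3 are regulators found in leukocytes, as is Rgs18, which fell by 0.65 (0.0202) and was named after its value was seen.

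Of 20 genes of PDGF, Notch, angiopoietin and TGF-beta signalling to mural cells, 6 were higher and 5 were lower (6 and 3 with library totals), with a median log2 fold change of -0.01, which was 0.07 with library totals. Angpt2, the angiopoietin that endothelial cells release when vessels remodel, had 96.9 ± 8.33 CPM in T166A and 56.3 ± 1.81 CPM in WT libraries (log2 fold change 0.78, edgeR adjusted p = 1.7e-09). Pdgfb, the ligand that recruits pericytes and which macrophages also make, had 415 ± 62.6 CPM in T166A and 300.0 ± 19.4 CPM in WT libraries (0.47, edgeR adjusted p = 0.000486), and was named after its value was seen. The receptors Notch1 and Notch2 fell by 0.52 and 0.35 (edgeR adjusted p = 1.8e-06 and 5.73e-05), and Tgfb1 fell by 0.39 (edgeR adjusted p = 3.5e-05). Rbpj, the DNA-binding partner of Notch, and Tgfbr2 were the other genes that fell.

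Of 11 tested transcription factors and cofactors of smooth muscle, 5 were higher and 5 were lower (5 and 3 with library totals). Srf, serum response factor itself, had 50.0 ± 5.03 CPM in T166A and 66.0 ± 6.05 CPM in WT libraries (log2 fold change -0.40, edgeR adjusted p = 0.000168). Klf4, a repressor of contractile genes in smooth muscle that is also abundant in macrophages, had 97.9 ± 3.01 CPM in T166A and 155 ± 16.5 CPM in WT libraries (-0.66, edgeR adjusted p = 4e-08). Csrp1, an LIM protein of smooth muscle and the most abundant of the list, rose by 0.28 (edgeR adjusted p = 0.000609). Mrtfb, Gata6, Tead1 and Prrx1 were the other genes that rose, and Mef2c, Foxo4 and Mrtfa the other genes that fell. The cofactor Myocd, from the contractile list, had 2.37 ± 0.216 CPM in T166A and 1.33 ± 0.659 CPM in WT libraries (0.83, edgeR adjusted p = 0.018).

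**Figure D4:**
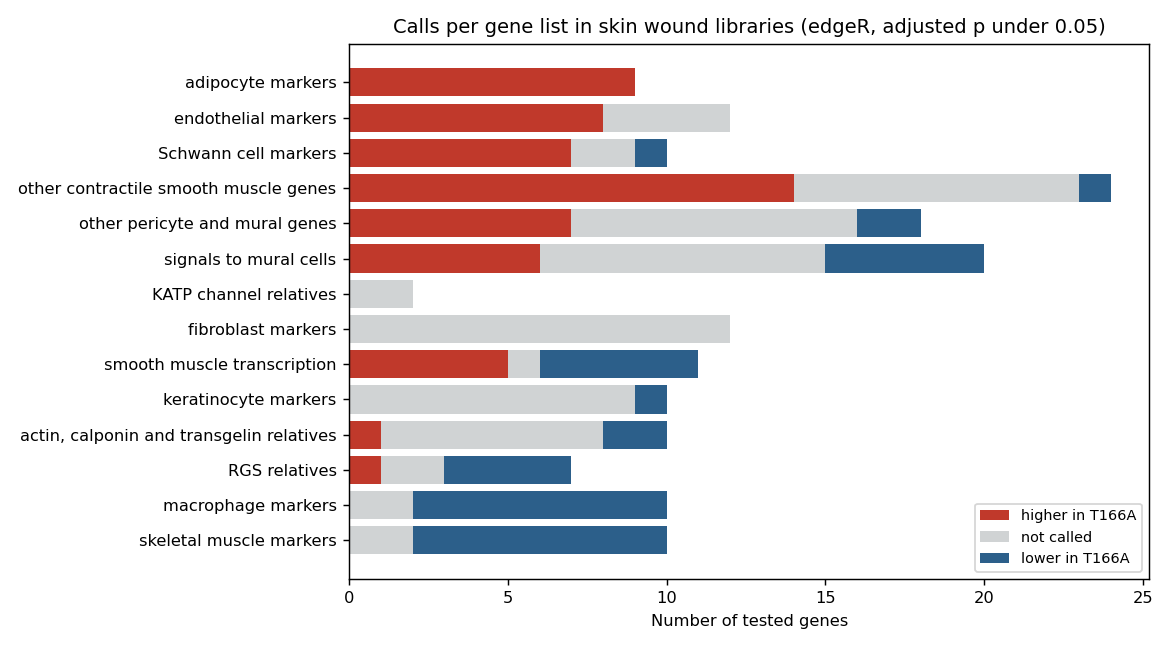
Number of tested genes of each list that were higher in T166A (red), not called (grey) or lower in T166A (blue) in skin, by edgeR with an adjusted p under 0.05. The other contractile genes show 14 of 24 higher, the fibroblast markers show no call, and the macrophage and skeletal muscle markers show 8 of 10 lower each.

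Markers of other cell types moved with the genotype too. Of 12 endothelial markers, 8 were higher and none was lower, with a median log2 fold change of 0.41, and their summed level was 2090 to 3040 CPM in T166A and 1660 to 2340 CPM in WT libraries. Pecam1, the most abundant, had 549 ± 75.0 CPM in T166A and 379 ± 46.9 CPM in WT libraries (0.53, edgeR adjusted p = 0.000995), and Emcn and Vwf rose by 0.83 and 0.89 (4.42e-06 and 0.00133). All 9 tested adipocyte markers were higher, with a median of 1.76 and a summed level over the 10 markers of 61.3 to 118 CPM in T166A and 26.4 to 41.1 CPM in WT libraries. Their most abundant gene Lipe rose by 0.45 (edgeR adjusted p = 0.00653), and Adipoq, Plin4 and Pck1 rose by 3.44, 1.65 and 3.32 (edgeR adjusted p = 9.45e-09, 2.04e-07 and 4.08e-06). Of 10 Schwann cell markers, 7 were higher and 1 was lower. Pmp22, the most abundant and the one that fell, fell by 0.42, while Cdh19 and Sox10 rose by 1.70 and 1.17 (edgeR adjusted p = 0.00107, 1.69e-05 and 7.3e-05). The summed level of these 10 was 354 to 471 CPM in T166A and 404 to 527 CPM in WT libraries.

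Of 10 skeletal muscle markers, 8 were lower, with a summed level of 27.7 to 38.9 CPM in T166A and 59.5 to 88.8 CPM in WT libraries, led by Acta1, Ckm and Tnnt3. Of 10 macrophage markers, 8 were lower, with a median of -0.32. Adgre1, which encodes F4/80, fell by 0.36, Csf1r by 0.32, Mrc1 by 0.33 and Lyz2 by 0.34 (edgeR adjusted p = 7.99e-05, 0.000102, 0.000111 and 0.000175). None of 12 fibroblast markers passed, and Col3a1, the most abundant, had 3750.0 ± 752 CPM in T166A and 3980.0 ± 613 CPM in WT libraries. Other scalings gave calls near the threshold. Fbln1 was lower with RLE and upper-quartile factors (edgeR adjusted p = 0.0468 and 0.0417), and Fap was higher with library totals (edgeR adjusted p = 0.0405). Of 10 keratinocyte markers, Krt15 fell by 0.81 (edgeR adjusted p = 0.00392), and the most abundant, Krt14, did not pass (0.24, edgeR adjusted p = 0.462). No marker of these lists was at 0 in every skin library. The part of endothelial, adipocyte, Schwann, skeletal muscle and macrophage RNA in the differences of the mural genes was not tested.

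Within genotypes, the pericyte and contractile levels varied with different genes across the 12 skin libraries. After removal of the genotype means, the genes most like the pericyte mean among 10209 genes of at least 5 CPM were Cdc42bpb (Pearson r = 0.943), Neurl1b (0.942), Plcg1 (0.933), Ano1 (0.925) and Pcdh17 (0.925). Those most like the contractile mean were Noc2l (r = 0.97), Krt14 (0.943), S100a16 (0.919), Rangap1 (0.918) and Pcbp4 (0.916). The 12 endothelial markers had a median r of 0.772 with the pericyte mean and 0.38 with the contractile mean. The 17 other contractile genes in the ranking had a median r of 0.331 with the pericyte mean and 0.711 with the contractile mean. The fibroblast markers had -0.677 and 0.0263 in the same order, the 10 macrophage markers -0.361 and -0.705, and the 6 keratinocyte markers ranked -0.149 and 0.713, beside -0.0487 and -0.0224 over all genes ranked. The pericyte mean spread more within T166A (SD 0.276) than within WT (SD 0.119). The contractile mean spread more within WT (SD 0.413) than within T166A (SD 0.176). The r values of the pericyte mean therefore rest mostly on T166A libraries and those of the contractile mean mostly on WT libraries. How far this accounts for the different genes was not tested. These values are descriptions over 12 libraries, which share depth, scaling and their mixture of cells.

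Pairs of members were also compared within each genotype over its 6 libraries, in 6 relations chosen after the data were seen. In WT libraries, Acta2 and Myh11 had Pearson r = 0.971 (exact permutation p = 0.00417, adjusted 0.025) and Spearman rho = 0.943 (exact permutation p = 0.0167, adjusted 0.1), and r was 0.967 without the 2 libraries farthest from the median of Acta2. The same pair had r = 0.716 in T166A (exact permutation p = 0.104, adjusted 0.165), which became -0.399 without the 2 farthest libraries. Rgs5 and Abcc9 had r = 0.865 in T166A (exact permutation p = 0.0292, adjusted 0.0876) and r = 0.321 in WT (exact permutation p = 0.553, adjusted 0.553), which became 0.578 in T166A and 0.448 in WT without the 2 libraries farthest from the median of Rgs5. Rgs5 and Acta2 had r = 0.483 in T166A (exact permutation p = 0.346, adjusted 0.415) and r = 0.705 in WT (exact permutation p = 0.11, adjusted 0.165), which became 0.929 in T166A and 0.0123 in WT without the 2 farthest libraries, so the order of the genotypes turned. Of the 6 relations, Acta2 with Myh11 in WT passed after adjustment by Pearson's r and none by Spearman's rho.

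BMDM served as a macrophage culture without vessels. There 7 of the 10 members had at most 28 counts in any library, and the other 3 (Pdgfrb, Acta2 and Tagln) had enough counts to be tested. Kcnj8 had 0 counts in all 3 T166A libraries, which allows up to 3 counts or 0.0676 to 0.0714 CPM by counting error alone, and 6, 0 and 0 counts in WT libraries. Rgs5 had 0, 0 and 17 counts in T166A replicates 1, 2 and 3 and 0 counts in each WT library. Cnn1 had 0, 0 and 1 counts in T166A and 28, 0 and 0 in WT, and Myh11 had 0, 0 and 8 in T166A and 14, 0 and 0 in WT. Notch3 had 0, 0 and 25 counts in T166A and 26, 0 and 3 in WT. Abcc9 had 0, 7 and 0 counts in T166A and 0, 0 and 1 in WT, and Cspg4 had 6, 4 and 6 in T166A and 6, 6 and 14 in WT, so that the highest library differed between genes.

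Acta2 had 1.24, 1.01 and 7.07 CPM in BMDM T166A replicates 1, 2 and 3 and 7.09, 1.09 and 1.82 CPM in WT replicates. Pdgfrb had 0.901, 0.712 and 9.31 CPM in T166A and 2.76, 0.143 and 0.676 CPM in WT replicates. Tagln had 2.68, 2.41 and 2.81 CPM in T166A and 7.29, 3.24 and 2.55 CPM in WT replicates. The groups overlapped for all 3 genes. WT replicate 1 was the highest of its group for each of them, and T166A replicate 3 stood well above its group for Acta2 and Pdgfrb but not for Tagln. The same T166A replicate 3 held 243 CPM of the fibroblast collagen gene Col1a1, beside 3.31 and 3.95 CPM in the other T166A libraries and 2.12 to 14.7 CPM in WT libraries. Dcn, another fibroblast gene, was at 0.619 CPM in T166A replicate 3 and at 10.7 CPM in WT replicate 1. The part of fibroblast RNA in the counts of these genes was not tested.

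None of the 3 tested genes passed in BMDM, by edgeR with batch as a term, where 0.0685% of 13139 genes were called (8 higher and 1 lower, and 8 higher and 2 lower with the replicate numbers as pairs) and 1687 had an unadjusted p under 0.05. The log2 fold change was 0.48 for Pdgfrb (95% interval -3.21 to 4.17, adjusted p = 0.921), -0.71 for Acta2 (-3.35 to 1.93, adjusted p = 0.817) and -0.66 for Tagln (-1.59 to 0.28, adjusted p = 0.528). None of the 3 had an unadjusted p under 0.05 by edgeR, and none was called by DESeq2 or limma-voom. Within batch B1 alone the log2 fold change of Pdgfrb was -0.85 (adjusted p = 0.709), so that its sign turned. A difference of the genotype effect, skin minus BMDM, was tested in a joint edgeR fit of 18 libraries, in which 14.3% of 16586 genes passed and 6.16% passed with a higher effect in skin. Tagln passed, with a difference of 1.52 (log2, SE 0.38, adjusted p = 0.0162), and lost the call without T166A replicate 1 or 2 of BMDM (adjusted p = 0.0637 and 0.0635). Its effects in that fit were 0.79 in skin and -0.73 in BMDM. The joint fit gave both sources a shared spread, although BMDM libraries varied more than skin libraries. Its SE for Tagln was below the SE of 0.41 of the BMDM effect fitted alone. The p-value of the difference therefore does not measure the spread of BMDM on its own. With the BMDM replicate numbers as pairs in the joint fit, an alternative added after the data were seen, the difference of Tagln was 1.47 (adjusted p = 0.0108). Acta2 (1.38, adjusted p = 0.28) and Pdgfrb (-0.65, adjusted p = 0.705) did not pass. Both also depended on few BMDM libraries. Without T166A or WT replicate 3 the difference of Acta2 was 2.80 and passed (adjusted p = 0.0151 each), while that of Pdgfrb turned to 1.09. Either way batch B1 alone informs the BMDM effect, because the batch term absorbs the library left in B2. Without WT replicate 1 the difference of Pdgfrb was -3.34 and passed (adjusted p = 3.04e-08), while that of Acta2 turned to -0.25.

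**Figure D5:**
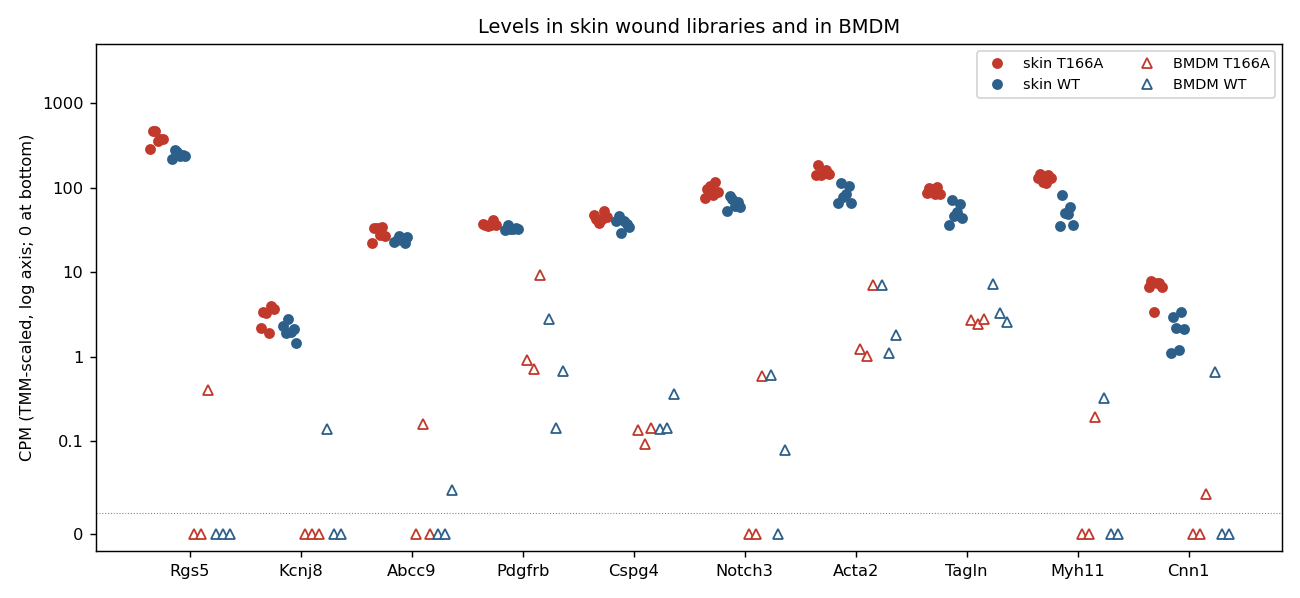
Levels of the 10 genes in skin wound libraries (filled circles) and BMDM (open triangles), T166A in red and WT in blue, as TMM-scaled CPM on a log axis, with libraries at 0 counts drawn on the line marked 0. Skin levels lie between 1.11 CPM (Cnn1) and 467 CPM (Rgs5), and BMDM levels stay below 10 CPM for every gene.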

How the data were processed

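RNA sequencing was used in 12 skin and 6 BMDM libraries. The authors deposited 1 table of raw counts for each source, with RefSeq transcripts as rows. The submitters' processing notes name HISAT2 2.2.1, featureCounts, cutadapt 4.4, FastQC 0.12.1 and the mm10 build. No source used here states the strand setting or the handling of multiply mapped or shared reads, so reads of overlapping genes cannot be told apart. The extraction protocol speaks of adipocytes, whereas the labels name macrophages.

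Of 45843 skin and 45895 BMDM transcripts, 117 each matched no gene (0.187% and 0.514% of counts) and were left out. For each gene the transcript of highest summed CPM was kept, which counts shared exons once. Counts were fitted in R 4.3.3 with edgeR 4.0.16 (TMM, robust quasi-likelihood F test, filterByExpr at 10 counts and 15 in total) and adjusted by Benjamini-Hochberg over all genes tested, with a threshold of 0.05. Skin was fitted with genotype, BMDM with batch and genotype, and the difference between sources in 1 fit of 18 libraries. The biological coefficient of variation was 0.133 in skin and 0.279 in BMDM, with 10 and 3 residual degrees of freedom. Printed CPM are counts over library total times TMM factor (0.946 to 1.05), and log2 CPM add a prior count of 2. Intervals and floors cover counting or fit error only.

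Tested on simulated data, the skin fit of 15536 genes recovered 76.1% of 1.5-fold and 97% of 2-fold changes, and the BMDM fit of 13521 genes 2.99% and 13.4%. The fit of the difference between sources over 16334 genes recovered 27.5% of 2-fold changes. Each simulation gave all genes the same spread, in the joint fit also both sources, and no batch effect. These shares therefore do not hold for genes of larger spread. Same-numbered T166A and WT libraries of BMDM deviated together (correlations of 0.2, 0.115 and 0.185), whereas those of skin did not. Batch was left in and differently numbered libraries were not compared, so these values cannot tell pairs from the shared batch label. The BMDM numbers were taken as pairs only in an alternative to each BMDM and joint fit. Named genes were the members and, of each other list, the most abundant tested gene and the 3 with the smallest adjusted p (5 for mural and contractile genes), plus the 5 genes most like the pericyte and the contractile mean. 1 gene that this rule names is not reported here. Members and lists were chosen with earlier results of these data known. Alternatives were other scalings (RLE, upper quartile, library totals), filters, DESeq2 1.42.0, limma-voom (limma 3.58.1), a replicate block, the sum over transcripts, no batch term, batch B1 alone, a prior count of 0.5 and leaving out each library.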

Additional observations from a re-analysis of the deposited data

Results flagged for a closer look

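In the 6 T166A skin libraries, Cnn1 was at 3.39 CPM in replicate 3, with a gap to the next library of 0.719 of the group's range. Among the same libraries Pdgfrb was at 41.4 CPM in replicate 5, the one library that stood above the rest of its group. Of 20 groups of skin values examined in this way, these 2 passed Dixon's critical value, and chance gives about 1 in 20. Without T166A replicate 3, the log2 fold change of Cnn1 remained called, as in every alternative run in skin. The genotype effect of Tagln differed between sources by 1.52 on the log2 scale, skin minus BMDM, with effects of 0.79 in skin and -0.73 in BMDM in the same joint fit (edgeR adjusted p = 0.0162, from 0.00604 to 0.0637 over its 20 alternatives). That fit gave skin and BMDM a shared spread, so this p-value does not measure the spread of BMDM on its own. In BMDM fitted alone the effect of Tagln was -0.66, and it was -0.13 without WT replicate 1.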

How the results depend on the processing

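In skin, Rgs5, Notch3, Acta2, Tagln, Myh11 and Cnn1 were called higher in all 21 alternatives, and no member was reversed. Kcnj8 and Abcc9 lost their calls under limma-voom (0.52 and 0.22 on the log2 scale, adjusted p = 0.0693 and 0.0543). Pdgfrb and Cspg4 were called with library totals (0.25 and 0.34), DESeq2 (0.16 and 0.25), limma-voom (0.16 and 0.26) and the replicate block (0.16 and 0.26, adjusted p = 0.0488 and 0.00728), and Pdgfrb also with a stricter filter and with the sum over transcripts (0.16 each). The number of members called higher was 8 to 10 over these settings, where 8.85% to 21.7% of all genes were higher, and 6 to 9 when a library was left out. Library totals gave 3357 higher and 1308 lower genes in skin; leaving out a library gave 1703 to 2089 higher and 1770.0 to 2090.0 lower. No call of a listed gene changed sign under a scaling.

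The skin replicate numbers were not taken as pairs in the main fit, because the labels give no pairing. Same-numbered skin libraries had correlations of -0.0454 to 0.0901, which cannot settle whether pairs exist. The replicate block gave 2248 higher and 2301 lower genes and 10 members higher. In BMDM, where the numbers were taken as pairs, the replicate block gave 8 higher and 2 lower genes and left all 3 tested members uncalled. In the joint fit, the BMDM replicate block (added after the data were seen) gave 1376 genes with a higher and 1758 with a lower effect in skin, and Tagln remained the 1 member called. BMDM calls moved with the setting. Lower genes were 2 with RLE factors and 2 with a stricter filter, and higher and lower genes were 84 and 21 without a filter, 248 and 143 with DESeq2, 148 and 29 with limma-voom, 0 and 0 with the sum over transcripts, 0 and 0 without a batch term, and 21 and 0 in batch B1 alone. Leaving out a library gave 0 to 18 higher and 0 to 8 lower genes. Leaving out either replicate 3 left batch B1 alone to inform the genotype effect, because the batch term absorbs the other.

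Pdgfrb in BMDM turned to -0.85 in batch B1 alone and ran from -0.85 to 3.17 when a library was left out, and Acta2 in BMDM ran from -1.86 to 0.85, reversed without WT replicate 1. Their differences between sources ran from -3.34 to 1.09 and from -0.25 to 2.80, that of Tagln from 0.98 to 1.91, and members called numbered 0 to 2 higher and 0 to 1 lower. Genes with a higher effect in skin numbered 684 to 1870.0 and with a lower one 1138 to 1745. The pericyte minus contractile difference stayed between -0.81 and -0.60. The cause of these shifts was not tested. In BMDM, whose libraries were deeper than those of skin, 7 of 10 members had too few counts to be tested.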
